A study of Homo sapiens with 16 samples.

Results

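The MYC network is a set of transcription factors that pair through a helix-loop-helix and leucine zipper, and its RNAs were followed here in SW480 cells, a human colorectal cancer line, when TAZ or beta-catenin was targeted by siRNA or wild-type APC was supplied. The named members were MYC, MYCL, MYCN, MAX, MXD1, MXD3, MXD4, MXI1, MNT and MLX. Every probe set annotated to 1 of these symbols and to no other gene was taken, which gave 31 of the 54675 probe sets on the array, for 9 of the 10 genes. MXD4 has no value, because its 3 probe sets were also annotated to the microRNA gene MIR4800. MYCN had 10 probe sets, MLX 6, MAX 5, MXD1 3, MYCL 2 and MNT 2, and MYC, MXD3 and MXI1 had 1 each.

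The 16 arrays cover 4 groups of 4, whose replicates carry the letters A to D. Control, siTAZ and sibcat cells all carried a stably transfected empty vector. Control cells received a control siRNA directed at GFP, siTAZ cells an siRNA to TAZ (gene WWTR1) and sibcat cells an siRNA to beta-catenin (gene CTNNB1). APC cells had a stable vector for wild-type APC in place of the empty one, with the same siRNA as control cells, and the labels do not say whether they are 1 clone or a pool. The study asked about TAZ as a mediator of Wnt signalling. With 1 siRNA condition per target, off-target effects and loss of the target cannot be told apart. The replicates are called biological without mention of separate cultures, so a p-value measures the spread between these samples only.

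MYC, MYCL and MYCN bind DNA as heterodimers with MAX at the E-box and activate genes for growth and biosynthesis. The MXD proteins, MXI1 and MNT also need MAX, occupy the same kind of site and recruit SIN3 corepressors, so that MAX partners compete with each other. MLX is a second hub that pairs with some MXD proteins, with MNT and with the glucose-responsive factors MLXIP (MondoA) and MLXIPL. In the intestine MYC is a classical target of beta-catenin and TCF, and its repression of CDKN1A is part of how Wnt activity holds crypt cells in a proliferative state.

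The 250 bases before the annotated gene start are printed for 6 members with a probe set called against control, so that the letters around their starts can be read beside the values. No MYC window is shown, and none for MAX, whose 2 windows in the table do not lie at the annotated gene start. They come from RefSeq on GRCh38.p14 and are written 5′ to 3′ on the gene's own strand, with motif matches in capitals. Motifs were searched on both strands: the E-box CACGTG, the TCF core CTTTGA (or TCAAAG) and the TEAD core CATTCC (or GGAATG).

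MYCN (chr2:15940300-15940549, plus strand): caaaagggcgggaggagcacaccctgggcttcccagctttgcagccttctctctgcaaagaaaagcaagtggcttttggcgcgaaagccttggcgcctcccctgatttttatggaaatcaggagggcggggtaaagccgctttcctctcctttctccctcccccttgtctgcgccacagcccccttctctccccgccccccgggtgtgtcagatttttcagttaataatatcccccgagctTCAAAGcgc
MYCL (chr1:39901918-39902167, minus strand): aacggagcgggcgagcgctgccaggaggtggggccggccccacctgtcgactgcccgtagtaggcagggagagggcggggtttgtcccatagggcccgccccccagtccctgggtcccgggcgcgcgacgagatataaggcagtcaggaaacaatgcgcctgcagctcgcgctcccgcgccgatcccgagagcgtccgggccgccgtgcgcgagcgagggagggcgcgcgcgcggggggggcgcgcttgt
MXI1 (chr10:110207355-110207604, plus strand): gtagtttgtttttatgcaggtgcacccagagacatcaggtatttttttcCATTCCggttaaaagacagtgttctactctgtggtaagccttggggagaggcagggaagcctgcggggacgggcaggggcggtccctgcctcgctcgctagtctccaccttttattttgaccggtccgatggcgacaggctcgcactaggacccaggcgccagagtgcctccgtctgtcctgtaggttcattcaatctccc
MXD1 (chr2:69914859-69915108, plus strand): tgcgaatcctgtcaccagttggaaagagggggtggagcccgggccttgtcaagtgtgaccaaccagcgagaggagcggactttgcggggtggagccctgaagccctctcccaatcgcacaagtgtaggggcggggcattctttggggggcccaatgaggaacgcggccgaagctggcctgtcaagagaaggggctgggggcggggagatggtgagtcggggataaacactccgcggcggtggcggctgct
MNT (chr17:2401061-2401310, minus strand): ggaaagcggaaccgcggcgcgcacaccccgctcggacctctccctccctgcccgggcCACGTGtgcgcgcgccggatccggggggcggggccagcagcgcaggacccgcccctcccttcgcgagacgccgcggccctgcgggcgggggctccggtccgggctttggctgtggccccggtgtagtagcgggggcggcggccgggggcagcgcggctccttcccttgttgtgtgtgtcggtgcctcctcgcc
MLX (chr17:42566850-42567099, plus strand): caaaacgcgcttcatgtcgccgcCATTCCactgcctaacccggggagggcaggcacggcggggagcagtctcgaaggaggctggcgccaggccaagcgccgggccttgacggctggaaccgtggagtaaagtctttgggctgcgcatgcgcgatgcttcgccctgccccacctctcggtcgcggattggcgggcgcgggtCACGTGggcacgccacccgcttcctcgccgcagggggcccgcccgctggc

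Of these windows, MLX held an E-box that begins 50 bases before the gene start and a TEAD core 227 bases before it, MNT an E-box 193 bases before its start, MXI1 a TEAD core 201 bases before its start, and MYCN a TCF core 9 bases before its start. The MYCL and MXD1 windows held none of the motifs, nor did the 2 MAX windows and 2 further MXI1 windows that are not shown. Counting also those of MXD3, with a TCF core, and MXD4, with an E-box, 3 of 12 member windows held the E-box, 2 the TCF core and 2 the TEAD core. These 12 windows belong to 9 member genes, since MYC was left out of the search. Among 35116 promoter windows of this length, 6.34% held the E-box, 11.2% the TCF core and 11.9% the TEAD core. Distances count from the first base of the match. A match describes the letters of the window and does not show that a factor binds there.

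Values are the authors' log2 RMA signals, on which a difference of 1 is a doubling. Probe sets of different genes are not compared with each other, because each has its own brightness. Differences were tested with limma over all probe sets, and a call of higher or lower needed an adjusted p (Benjamini-Hochberg) under 0.05. Where a gene had several probe sets, the brightest over the 16 arrays stands for it. The median probe set level was 5.10, and 11 of the 31 member probe sets lay below it in every group, where signal may be largely background. The siRNA targets fell in their own groups, WWTR1 by 3.37 on the log2 scale in siTAZ cells and CTNNB1 by 2.96 in sibcat cells. WWTR1 was called higher in APC cells (0.73, adjusted p = 1.19e-06, limma) and in sibcat cells (0.70, adjusted p = 1.83e-06). With the mean of its probe sets the sibcat difference was 0.33. CTNNB1 was called lower in APC cells (-0.38, adjusted p = 0.0184, limma), a call lost in 4 of 28 alternative settings. The APC gene's brightest probe set averaged 8.22 ± 0.32 (SD, n = 4) in control and 8.30 ± 0.18 in APC cells (adjusted p = 0.743, limma), while the mean of that gene's probe sets was 0.35 higher there (adjusted p = 9.99e-04).

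Of 11 markers of colon epithelium and this line, 10 reached the median level, the exception being the stem cell receptor LGR5. Some of these 11 moved with the groups, in both directions: 1 was called higher and 3 lower in siTAZ, 3 and 2 in sibcat, and 0 and 5 in APC cells. The called shares of all genes were 27.0%, 32.9% and 30.7%. The adhesion protein CDH1 differed from control by -1.13 in siTAZ (-0.64 with the mean of its probe sets) and 0.41 in sibcat cells. CDX2 differed by 0.48 in siTAZ, -0.97 in sibcat and -0.44 in APC cells. In sibcat cells the stem cell factor ASCL2 differed by -1.54 and the brush border protein VIL1 by 1.02. The largest APC difference was that of KRT8, at -0.52. The summed level of that list ran from 106.59 to 106.94 in control, 104.75 to 105.82 in siTAZ, 105.70 to 106.28 in sibcat and 104.63 to 104.96 in APC cells. Of the markers of other cell types 2 of 5 for leukocytes, 3 of 10 for fibroblasts and endothelium and 4 of 7 for nervous system and liver reached the median level. The neuronal SNAP25 averaged 7.15 in control and was called in siTAZ (8.13), sibcat (6.59) and APC cells (5.45). MBP, a myelin gene, averaged 6.93 in control and was called in siTAZ (6.30) and APC cells (7.89), the siTAZ call being lost in 5 of 28 alternative settings. The summed level of the nervous system and liver list ran from 35.79 to 37.92 in control, 36.39 to 37.42 in siTAZ, 35.77 to 37.15 in sibcat and 35.14 to 36.92 in APC cells. The leukocyte marker CD14 averaged 4.60 in control and was called higher in siTAZ (5.20), sibcat (6.24) and APC cells (5.08), while PTPRC, LYZ and ITGAM stayed below the median level. The summed level of the leukocyte list ran from 20.69 to 22.16 in control, 21.01 to 22.04 in siTAZ, 22.51 to 22.74 in sibcat and 21.22 to 21.72 in APC cells. The part of these markers in the results was not tested. The 3′ minus 5′ signal of ACTB is a measure of RNA integrity. In siTAZ cells it was 2.565 ± 0.386 (SD, n = 4) against 2.052 ± 0.159 for control. An exact two-sided permutation test gave p = 0.0571, where 0.0286 is the smallest possible. The same signal of GAPDH was 0.505 ± 0.105 in siTAZ cells against 0.348 ± 0.074 for control (p = 0.0857 by that permutation test).

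In siTAZ cells MAX, MNT, MXI1 and MYC rose and MYCL fell. In sibcat cells MYC fell while MXI1, MXD1 and MLX rose. In APC cells MLX rose, and MAX and MXI1 fell slightly, while MYC differed from control by 0.00 (95% interval -0.14 to 0.15). These APC calls were lost in 4 of 27 alternative settings for MLX, 17 of 27 for MAX and 9 of 28 for MXI1. MYCN was not called on its brightest probe set in APC cells (-0.06, adjusted p = 0.691). Of its 9 other probe sets 1, dim in control, was higher there, from 3.75 to 6.18, a difference whose size is uncertain because the control level lies below the median of all probe sets. By probe set, 7 members were higher and 1 was lower in siTAZ cells than in control cells, or 25.8% of the 31, beside 20.3% of all probe sets called. In sibcat cells 5 were higher and 1 lower, or 19.4%, beside 25.6% of all. In APC cells 5 were higher and 2 lower, or 22.6%, beside 24.0% of all. The members' probe sets were called about as often as probe sets at large. Their median difference was 0.08 in siTAZ, 0.02 in sibcat and 0.00 in APC cells, beside 0.0075, 0.0025 and 0.0225 over all probe sets. By gene, 5 of 9 members were called in siTAZ, 4 in sibcat and 3 in APC cells, beside 27.0%, 32.9% and 30.7% of all genes. These comparisons share the control arrays.

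**Figure D1:**
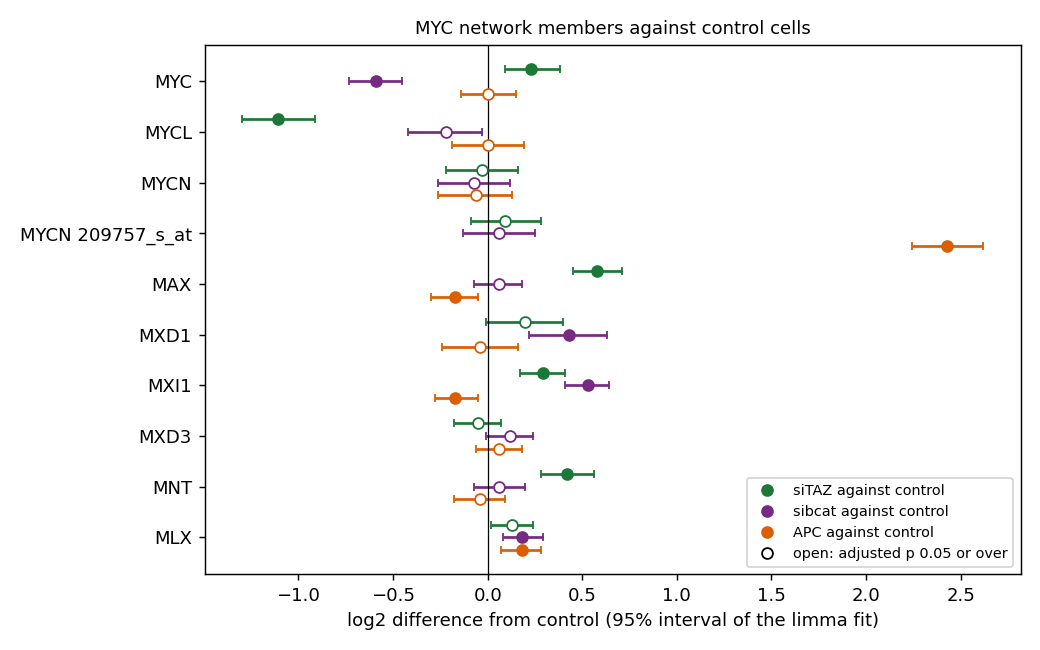
Log2 difference from control cells (x axis) of each member in siTAZ, sibcat and APC cells, with the 95% interval of the limma fit. The brightest probe set is shown for each gene, and for MYCN also 209757_s_at, its only probe set called against control, chosen after its values were seen. Filled points have an adjusted p under 0.05. Among the brightest probe sets MYCL in siTAZ cells (-1.11) lies farthest from 0, and MYCN 209757_s_at in APC cells lies at 2.43.

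MYC, the broadly expressed activator of the family, was measured by 202431_s_at. Its signal was 11.19, 11.27, 11.04 and 11.15 on control arrays A to D, 11.41, 11.46, 11.35 and 11.37 on siTAZ arrays, 10.68, 10.61, 10.47 and 10.53 on sibcat arrays, and 11.23, 11.24, 11.06 and 11.14 on APC arrays. All 4 sibcat arrays lay below, and all 4 siTAZ arrays above, every control and APC array, whose ranges overlapped. In sibcat cells MYC fell to 66.4% of control (log2 difference -0.59, SE 0.07, adjusted p = 2.81e-06, limma). In APC cells the difference was 0.00 with a 95% interval from -0.14 to 0.15 (adjusted p = 0.973), an interval that holds no fall as large as the one in sibcat cells. APC cells exceeded sibcat cells by 0.60 (95% interval 0.45 to 0.74, adjusted p = 1.64e-06). In bulk samples less RNA per cell and fewer cells holding it cannot be told apart.

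The rise of MYC in siTAZ cells was small, at 0.23 on the log2 scale (SE 0.07, adjusted p = 0.0177, limma), or 1.18-fold. With the ACTB 3′ minus 5′ signal as a covariate it was 0.14 with an adjusted p of 0.211. It also missed the threshold without control replicate C (0.19) or without siTAZ replicate B (0.21). Beyond the direct contrast with control, MYC in siTAZ cells was 0.82 above sibcat cells (adjusted p = 3.73e-08) and 0.23 above APC cells (adjusted p = 0.0128; 0.152 with the ACTB covariate). With the same covariate the siTAZ differences from control were 0.59 for MAX, 0.39 for MNT, 0.34 for MXI1 and -1.18 for MYCL, and all 4 stayed called (adjusted p = 2.46e-05, 0.00185, 9.32e-04 and 1.54e-06). For MYC the order of the group means was siTAZ, then APC and control without a difference beyond their spread, then sibcat.

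MYCL, the family member first found amplified in small cell lung cancer, moved the other way in siTAZ cells. On 214058_at control arrays A to D read 7.07, 6.89, 7.13 and 7.09, siTAZ arrays 6.23, 5.96, 5.74 and 5.82, sibcat arrays 6.78, 6.82, 6.77 and 6.92, and APC arrays 7.03, 6.94, 7.07 and 7.14. Every siTAZ array lay below every other array. MYCL fell to 46.4% of control in siTAZ cells (log2 difference -1.11, SE 0.09, adjusted p = 1.13e-07, limma), and it was 0.89 lower than in sibcat cells (fitted difference -0.89, adjusted p = 7.39e-07). The sibcat difference from control was -0.22 (95% interval -0.42 to -0.03, adjusted p = 0.0904) and the APC difference 0.00 (-0.19 to 0.19, adjusted p = 1). The other MYCL probe set, 215491_at, did not show the fall: it averaged 4.96 ± 0.11 (SD, n = 4) in control and 4.97 ± 0.09 in siTAZ cells, both below the median level. With the mean of both probe sets the fall in siTAZ cells was 0.54 on the log2 scale (fitted difference -0.54, adjusted p = 2.16e-06). In the sibcat comparison that mean was called (-0.18, adjusted p = 0.0231). The second probe set was called only between APC and sibcat cells, at 0.36 (adjusted p = 0.00201).

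MYCN, known for its amplification in neuroblastoma, was called on 1 of its 10 probe sets, which is not the brightest one. On 209757_s_at control arrays A to D read 3.68, 3.82, 3.67 and 3.83, siTAZ arrays 3.91, 3.82, 3.82 and 3.83, sibcat arrays 4.08, 3.73, 3.64 and 3.79, and APC arrays 6.01, 6.16, 6.24 and 6.31. The APC arrays stood alone above the median level of 5.10, and the other 12 values overlapped between groups. The difference from control was 2.43 (95% interval 2.24 to 2.62, adjusted p = 9.05e-13, limma), and since control signal lay below the median level its size is uncertain. APC cells were likewise 2.37 above sibcat cells (adjusted p = 1.34e-12), and siTAZ cells differed from APC cells by -2.33 (adjusted p = 1.10e-12).

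The remaining 9 MYCN probe sets ran from 2.16 to 5.66 over all arrays, and their APC minus control differences ran from -0.17 to 0.11. Of these, 8 lay below the median level in every group, where signal may be largely background and a change could be missed. None of the 9 was called in any of the 6 comparisons, the lowest adjusted p being 0.0546 (limma). With the replicate letter as a block, 234298_at, at a dim level, was called lower in siTAZ than sibcat cells (-0.26, adjusted p = 0.0248) and in APC than sibcat cells (-0.23, adjusted p = 0.0363). The brightest, 211377_x_at, averaged 5.48 ± 0.08 (SD, n = 4) in control and 5.42 ± 0.17 in APC cells. Its suffix _x_at marks a probe set whose probes can also bind other transcripts. Of the 9, 5 share 1 sequence record in the probe annotation. Which probe set follows the MYCN transcript in these cells was not tested. The mean over all 10 was 0.21 higher in APC cells than in control cells (adjusted p = 0.00256 over genes, limma).

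**Figure D2:**
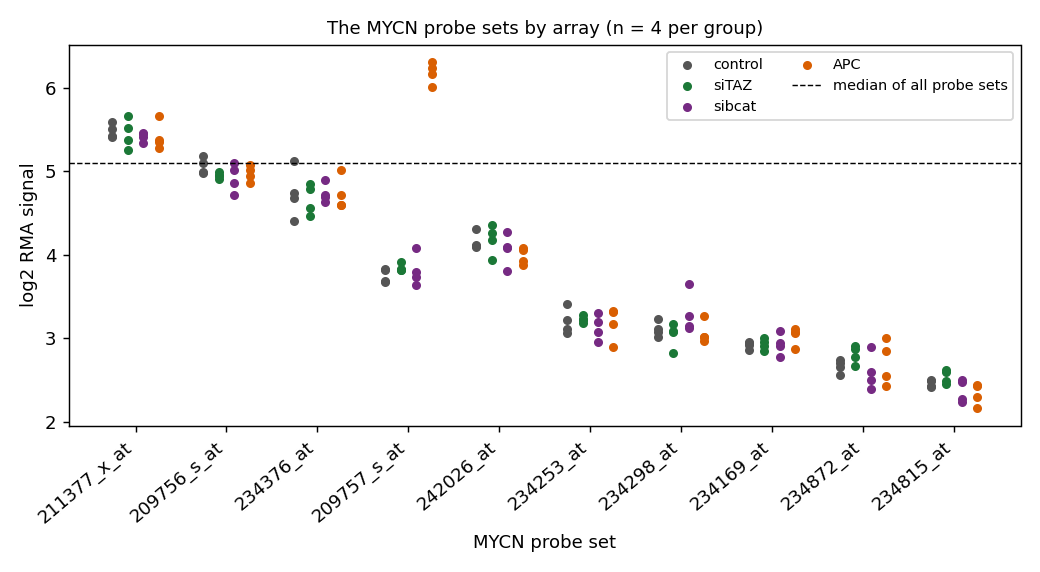
Log2 RMA signal (y axis) of the 10 MYCN probe sets (x axis) on each of the 16 arrays, coloured by group, with the median of all probe sets dashed. On 209757_s_at the 4 APC arrays read 6.01 to 6.31 and all other arrays 4.08 or less. On the other 9 probe sets the groups lie together, and 8 of these lie below that median in every group.

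MAX, the obligate partner of the MYC and MXD proteins, was higher in siTAZ cells than in any other group. On 209332_s_at control arrays A to D read 10.04, 10.01, 10.25 and 10.11, siTAZ arrays 10.69, 10.65, 10.71 and 10.68, sibcat arrays 10.23, 10.16, 10.12 and 10.13, and APC arrays 9.93, 9.94, 9.87 and 9.98. The siTAZ arrays lay above all others, and the APC arrays below all others. MAX rose 1.49-fold in siTAZ cells against control (log2 difference 0.58, SE 0.06, adjusted p = 1.46e-06, limma) and was 0.52 above sibcat cells (adjusted p = 2.39e-06). Its fall in APC cells was small (-0.17, adjusted p = 0.044) and missed the threshold in 17 of 27 alternative settings. In sibcat cells the difference was 0.06 (95% interval -0.07 to 0.18).

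Of the other 4 MAX probe sets, 209331_s_at rose by 0.46 in siTAZ cells (adjusted p = 4.52e-04, limma) and 214108_at by 0.27 (adjusted p = 0.0306), the latter with overlapping groups and lost in 9 of 26 alternative settings. The remaining pair, 210734_x_at and 208403_x_at, differed from control by 0.10 and 0.04 in siTAZ cells (adjusted p = 0.507 and 0.855). The mean of the 5 rose by 0.29 in siTAZ cells (adjusted p = 6.81e-04). The suffix _x_at marks probe sets whose probes can also bind other transcripts. In an alternative setting names ending in _s_at or _a_at, among them 209332_s_at and 209331_s_at, were also treated as able to cross-hybridise.

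**Figure D3:**
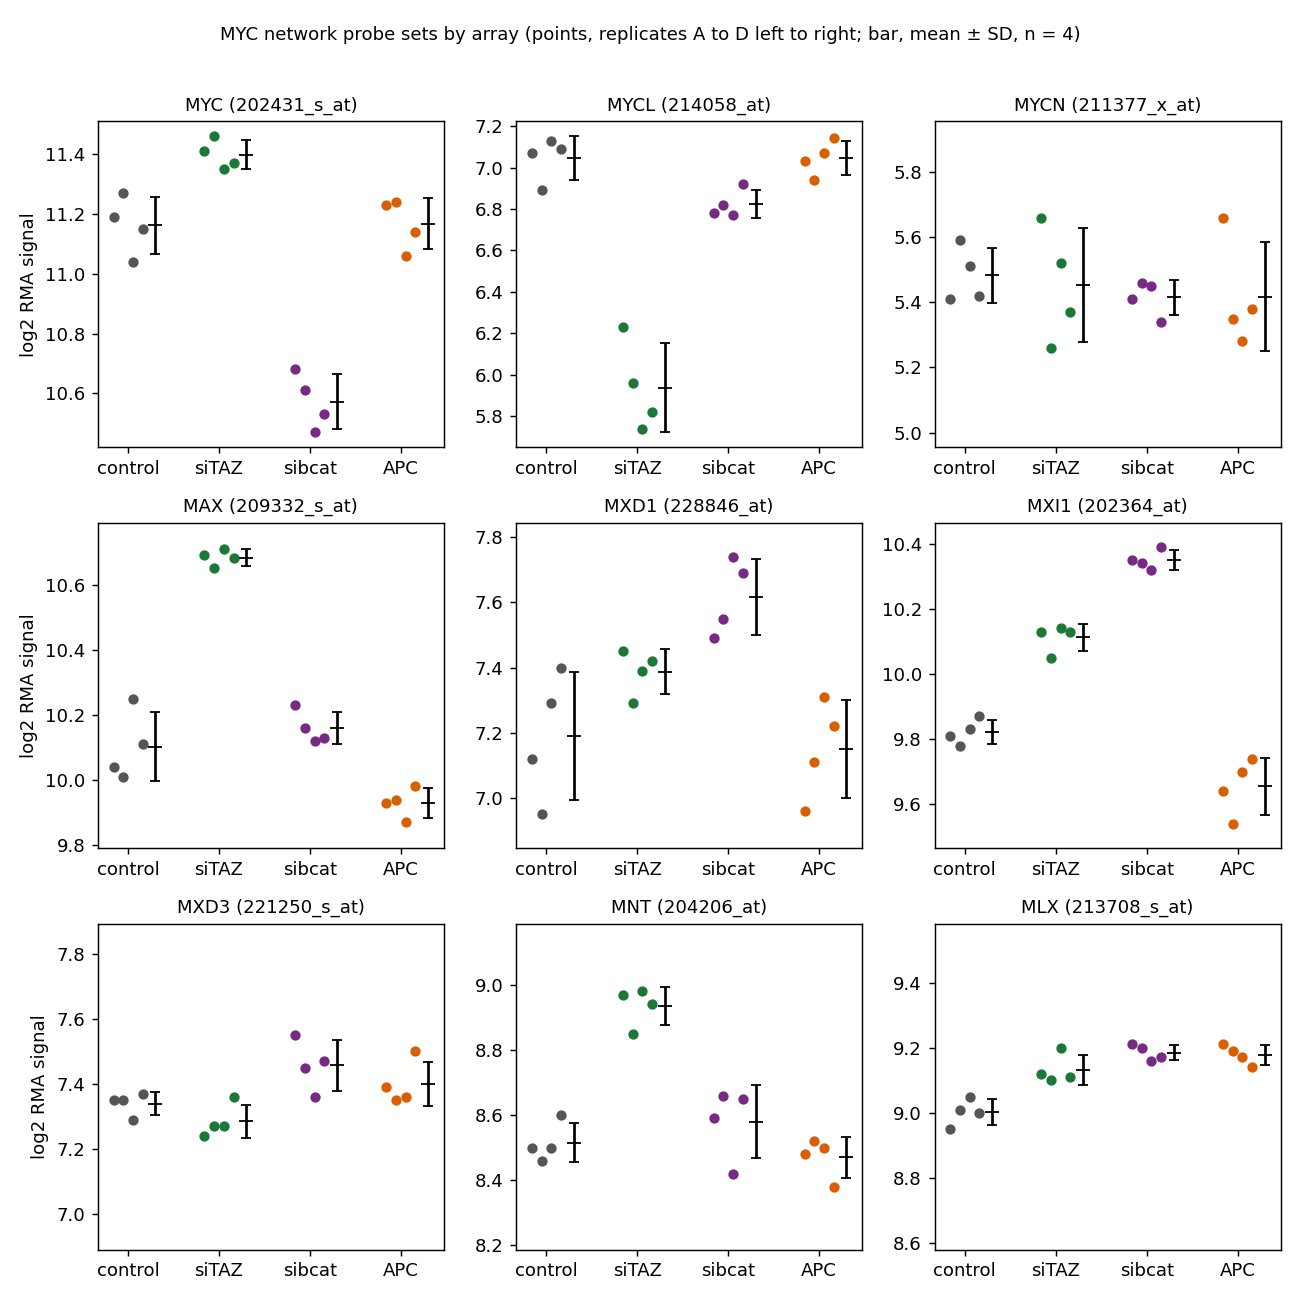
Log2 RMA signal (y axis, its range set per panel) of the brightest probe set of each member on every array, by group (x axis); points are replicates A to D from left to right and bars are mean ± SD (n = 4). Sibcat arrays are lowest for MYC and highest for MXI1, siTAZ arrays are lowest for MYCL and highest for MAX and MNT, while the groups overlap for MYCN on 211377_x_at.

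MXI1, an MXD-family protein that opposes MYC at MAX-bound sites, was called in all 6 comparisons. On 202364_at control arrays A to D read 9.81, 9.78, 9.83 and 9.87, siTAZ arrays 10.13, 10.05, 10.14 and 10.13, sibcat arrays 10.35, 10.34, 10.32 and 10.39, and APC arrays 9.64, 9.54, 9.70 and 9.74. The 4 groups did not overlap, in the order sibcat, siTAZ, control, APC. MXI1 rose 1.44-fold in sibcat cells (log2 difference 0.53, SE 0.06, adjusted p = 1.15e-06, limma) and 1.22-fold in siTAZ cells (0.29, adjusted p = 8.90e-04). It fell in APC cells by 0.17 (adjusted p = 0.0361, missed in 9 of 28 alternative settings), and APC cells lay 0.69 below sibcat cells (fitted difference -0.69, adjusted p = 2.42e-08).

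MXD1, the antagonist that typically appears as cells differentiate, rose in sibcat cells on 2 of its 3 probe sets. On the brightest, 228846_at, control arrays A to D read 7.12, 6.95, 7.29 and 7.40 and sibcat arrays 7.49, 7.55, 7.74 and 7.69. On 226275_at control arrays read 6.47, 6.15, 6.36 and 6.44 and sibcat arrays 6.95, 7.04, 7.12 and 7.12. Sibcat and control arrays were separate on both. The differences were 0.43 (SE 0.10, adjusted p = 0.00267, limma) and 0.70 (SE 0.09, adjusted p = 1.27e-05).

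In siTAZ cells 228846_at, the brightest MXD1 probe set, read 7.45, 7.29, 7.39 and 7.42 and in APC cells 6.96, 7.11, 7.31 and 7.22, and neither group passed the test against control (0.20 and -0.04, adjusted p = 0.191 and 0.831). The siTAZ difference from sibcat cells was -0.23, with an adjusted p of 0.0963, or 0.0273 with the replicate letter as a block. The siTAZ difference from APC cells was 0.24, with an adjusted p of 0.073, or 0.0196 with that block. The third MXD1 probe set, 206877_at, lay below the median level in every group and was not called in any of the 6 comparisons.

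MXD3, an MXD protein linked to proliferating cells, was nearly level. Its probe set 221250_s_at read 7.35, 7.35, 7.29 and 7.37 in control, 7.24, 7.27, 7.27 and 7.36 in siTAZ, 7.55, 7.45, 7.36 and 7.47 in sibcat, and 7.39, 7.35, 7.36 and 7.50 in APC cells. All groups overlapped, and no comparison with control passed the test, with differences of -0.05, 0.12 and 0.06. The fitted siTAZ minus sibcat difference of -0.17 had an adjusted p of 0.0351 (limma) although those arrays overlapped, and it missed the threshold in 10 of 27 alternative settings.

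MNT, the ubiquitous MAX partner that represses many MYC target genes, rose in siTAZ cells. On 204206_at control arrays A to D read 8.50, 8.46, 8.50 and 8.60, siTAZ arrays 8.97, 8.85, 8.98 and 8.94, sibcat arrays 8.59, 8.66, 8.42 and 8.65, and APC arrays 8.48, 8.52, 8.50 and 8.38. The siTAZ arrays lay above every other array, and the other groups overlapped. MNT rose 1.34-fold against control (log2 difference 0.42, SE 0.06, adjusted p = 1.10e-04, limma), and siTAZ cells were 0.35 above sibcat (adjusted p = 3.55e-04) and 0.46 above APC cells (adjusted p = 1.63e-05). The second MNT probe set, 236749_at, lay below the median level in every group and was not called in the 6 comparisons.

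MLX, the hub shared with the glucose-sensing factors, rose slightly in sibcat and APC cells. On 213708_s_at control arrays A to D read 8.95, 9.01, 9.05 and 9.00, siTAZ arrays 9.12, 9.10, 9.20 and 9.11, sibcat arrays 9.21, 9.20, 9.16 and 9.17, and APC arrays 9.21, 9.19, 9.17 and 9.14. Control arrays lay below all others. The difference was 0.18 in sibcat cells (adjusted p = 0.0109, limma). With the mean of the 6 probe sets the sibcat difference was 0.11 (adjusted p = 0.0556). In APC cells 213708_s_at differed by 0.18 (adjusted p = 0.0155). That call was lost in 4 of 27 alternative settings, among them the fit without control replicate A. The siTAZ difference was 0.13 (95% interval 0.02 to 0.24, adjusted p = 0.0826).

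The MLX probe sets did not all move alike. On 210752_s_at the differences were 0.26 in siTAZ, 0.38 in sibcat and 0.46 in APC cells (adjusted p = 0.0363, 0.00244 and 5.09e-04), and the siTAZ call was lost in 8 of 25 alternative settings. On 217909_s_at APC arrays read 8.73, 8.78, 8.76 and 8.77 against 8.56, 8.41, 8.52 and 8.51 in control, a difference of 0.26 (adjusted p = 0.00395). There siTAZ arrays read 8.18, 8.37, 8.33 and 8.45, and siTAZ cells lay 0.43 below APC cells (fitted difference -0.43, adjusted p = 2.26e-05). On 217910_x_at APC cells were 0.17 above control (adjusted p = 0.0408, lost in 13 of 25 alternative settings). The other pair of MLX probe sets was not called in any comparison.

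Between the perturbed groups, siTAZ and sibcat cells differed on 9 of 31 member probe sets, 4 higher and 5 lower in siTAZ cells, or 29%, beside 26.7% of all probe sets. On the brightest probe sets MYC, MAX and MNT were higher in siTAZ cells, and MYCL, MXI1 and MXD3 lower. MXD1 226275_at (-0.52) and MLX 217909_s_at (-0.23) were also lower there, although the brightest probe sets of these genes were not called. APC and sibcat cells also differed on 9, 4 higher and 5 lower in APC cells, beside 31.5% of all. On the brightest probe sets MYC was higher in APC cells, and MAX, MXD1 and MXI1 lower, where the MAX difference of -0.23 became -0.09 with the mean of its probe sets (adjusted p = 0.216). MYCL 215491_at, MLX 217909_s_at (0.20) and MYCN 209757_s_at were higher in APC cells while the brightest probe sets of these 3 genes were not called. The siTAZ and APC cells differed on 9, 6 higher and 3 lower in siTAZ cells, beside 32.4% of all. On the brightest probe sets MYC, MAX, MNT and MXI1 were higher and MYCL lower in siTAZ cells, and MLX 217909_s_at and MYCN 209757_s_at were lower without a call on the brightest. For MNT the siTAZ minus APC difference of 0.46 was 0.24 with the mean of its probe sets.

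Network members outside the named set were MGA, a MAX partner, and the MLX partners MLXIP and MLXIPL. MLXIPL averaged 5.74 ± 0.17 (SD, n = 4) in control and rose by 0.34 in siTAZ and 0.47 in sibcat cells (adjusted p = 0.00665 and 3.03e-04, limma). With the ACTB covariate the siTAZ value was 0.29 and no longer passed (adjusted p = 0.0607). MLXIP fell by 0.26 in sibcat cells (adjusted p = 0.00328). MGA passed the test in no comparison with control. Both genes taken as targets of the MLX branch rose in sibcat cells. TXNIP, which limits glucose uptake, read 10.14, 10.07, 10.10 and 10.14 on control arrays A to D and 11.20, 11.19, 11.28 and 11.22 on sibcat arrays, a rise of 1.11 (adjusted p = 1.28e-10). In siTAZ cells TXNIP fell by 0.60 (adjusted p = 4.43e-07), and in APC cells its difference was -0.07 (adjusted p = 0.414). ARRDC4, a related arrestin, was 0.85 higher in sibcat cells (adjusted p = 1.00e-05), and in APC cells it fell by 0.44 (adjusted p = 0.00565). Its siTAZ difference of 0.24 had an adjusted p of 0.141, or 0.00494 with the replicate letter as a block.

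The lists that follow are joined here with those of the perturbed genes, the further network members and the MLX targets. Together they name 94 calls against control, each on the brightest probe set. Of these 32 were lost with replicates A and B alone, 13 with C and D alone and 10 with the mean of a gene's probe sets. With only the 2 groups compared in the fit 8 were lost, and with the ACTB covariate 3. None changed sign in these settings.

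Genes that MYC is known to activate, a list of biosynthetic, metabolic and growth genes, were lower in sibcat cells for the most part. Of the 39 of 45 listed genes that could be analysed, 6 rose and 28 fell in sibcat cells, or 71.8% lower, beside 15.8% of all genes, with a median of -0.37 beside 0.00 over all genes. SLC1A5, a glutamine carrier, read 9.86, 9.82, 9.38 and 9.47 on control arrays A to D and 8.11, 8.03, 8.07 and 7.79 on sibcat arrays, a fall of 1.63 (adjusted p = 4.61e-08, limma). ODC1, the rate-limiting enzyme of polyamine synthesis, fell by 1.23 (adjusted p = 1.21e-11). IMPDH2, for guanine nucleotides, fell by 0.80, and EIF2S1, a translation initiation factor, and POLR1B, an RNA polymerase I subunit, by 0.62 each. With the mean of a gene's probe sets the difference was -0.03 for EIF2S1 (adjusted p = 0.641) and -0.33 for POLR1B (adjusted p = 2.39e-04).

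In siTAZ cells 2 of the 39 activated genes rose and 16 fell, or 41% lower, beside 11.8% of all genes, with a median of -0.14 beside 0.015 over all genes. SLC7A5, which carries leucine into cells, read 10.71, 10.68, 10.70 and 10.63 on control arrays A to D and 8.41, 8.38, 8.46 and 8.39 on siTAZ arrays, a fall of 2.27 (adjusted p = 2.93e-14, limma). NME1, a nucleoside diphosphate kinase, fell by 1.12, ODC1 by 0.75, the hexokinase HK2 by 0.49 and the cell cycle phosphatase CDC25A by 0.44. MYC itself rose slightly in the same cells.

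In APC cells 6 of the 39 activated genes rose, beside 15.0% of all genes, and 8 fell, or 20.5%, beside 15.7% of all genes, with a median of 0.04 beside 0.010 over all genes. SLC1A5 fell by 0.66, the serine hydroxymethyltransferase SHMT2 by 0.65 and HK2 by 0.56, while RIOX2, known earlier as MINA, rose by 0.52 and the cyclin CCND2 by 0.51. The mean over probe sets gave -0.28 for HK2 and 0.32 for RIOX2.

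**Figure D4:**
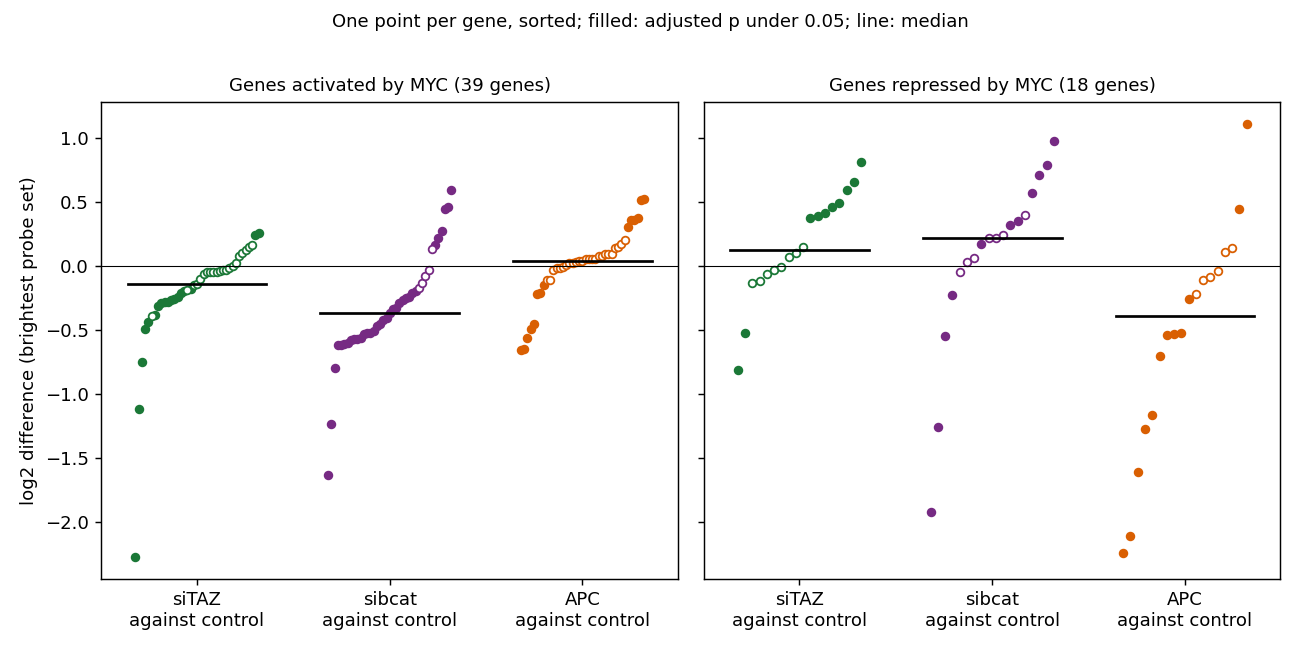
Log2 difference from control (y axis) of each analysed gene that MYC is known to activate (39 genes, left) or repress (18 genes, right), sorted within siTAZ, sibcat and APC cells; filled points have an adjusted p under 0.05 and lines are medians. For activated genes the medians are -0.14, -0.37 and 0.04, and for repressed genes 0.13, 0.22 and -0.39.

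Genes that MYC is known to repress were mostly lower in APC cells. Of 18 analysed, 2 rose and 10 fell there, or 55.6% lower, beside 15.7% of all genes, with a median of -0.39. NDRG1, a stress and differentiation gene, read 11.39, 11.48, 11.47 and 11.29 on control arrays A to D and 9.20, 9.19, 9.11 and 9.17 on APC arrays, a fall of 2.24 (adjusted p = 6.45e-15, limma). GADD45B fell by 2.11 and the stress factor DDIT3 fell by 1.61. Also lower were the cyclin-dependent kinase inhibitor CDKN1C by 1.27 and the secreted chaperone CLU by 1.16. For CLU the mean over probe sets gave -0.75.

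In siTAZ cells 8 of the 18 repressed genes rose and 2 fell, beside 15.2% of all genes higher and 11.8% lower, with a median of 0.13. HBP1, a transcriptional repressor, rose by 0.81, the antiproliferative gene BTG1 by 0.65 and the kinase inhibitor CDKN1B by 0.59, while GADD45B fell by 0.81 and CDKN2B by 0.52. In sibcat cells 7 rose and 4 fell, beside 17.1% of all genes higher and 15.8% lower, with a median of 0.22. The inhibitors split there: CDKN1C fell by 1.92 and CDKN1A by 1.26 (adjusted p = 3.42e-12 and 4.27e-11, limma), while CDKN1B rose by 0.97, CDKN2B by 0.71 and HBP1 by 0.79. With the mean over probe sets CDKN2B differed by -0.21 in siTAZ cells (adjusted p = 0.0817) and by 0.36 in sibcat cells, HBP1 by 0.36 and 0.35, and CDKN1C by -1.16 in sibcat cells.

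Genes that act on the MYC protein, most of them on its stability, were called in both directions. Of 18 analysed, 5 rose and 3 fell in siTAZ, 3 rose and 7 fell in sibcat, and 5 rose and 2 fell in APC cells, with medians of -0.13, -0.17 and 0.08. The called shares were 44.4%, 55.6% and 38.9%, beside 27.0%, 32.9% and 30.7% of all genes. FBXW7, the ubiquitin ligase subunit that marks phosphorylated MYC for breakdown, read 7.35, 6.94, 7.59 and 7.48 on control arrays A to D and 8.21, 8.19, 8.21 and 8.35 on siTAZ arrays, a rise of 0.90 (adjusted p = 6.48e-05, limma). FBXO28, another ligase subunit, fell by 1.03 and the deubiquitinases USP28 and USP36 rose by 0.50 and 0.48 in siTAZ cells. CIP2A, an inhibitor of the phosphatase that destabilises MYC, fell by 0.60 in siTAZ and 0.70 in sibcat cells. In sibcat cells the ligase subunit BTRC rose by 0.52, and the ligase subunit FBXL14 and the kinase GSK3B each fell by 0.35 and FBXO28 by 0.34. In APC cells USP36 rose by 0.55, BTRC by 0.39, the phosphatase subunit PPP2R5A by 0.38 and the ligase subunit SKP2 by 0.38, and USP28 fell by 0.47.

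The mean over a gene's probe sets ended 4 of these stability calls. In sibcat cells it gave 0.12 for BTRC, -0.12 for FBXL14 and -0.10 for GSK3B (adjusted p = 0.101, 0.145 and 0.242, limma), and in APC cells 0.05 for PPP2R5A (adjusted p = 0.509). Smaller differences that still passed were 0.55 for FBXW7, 0.31 for USP28 and 0.23 for USP36 in siTAZ cells and 0.16 for BTRC in APC cells.

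Of 9 regulators of MYC transcription and mRNA, 2 rose and 2 fell in siTAZ, 3 rose and 1 fell in sibcat, and 3 rose and 2 fell in APC cells, with medians of -0.02, -0.07 and 0.03. The called shares were 44.4%, 44.4% and 55.6%, beside 27.0%, 32.9% and 30.7% of all genes. IGF2BP3, an RNA-binding protein that stabilises MYC mRNA, rose by 1.18 in sibcat and 0.94 in APC cells (adjusted p = 1.68e-09 and 2.49e-08, limma). Its relative IGF2BP2 rose by 0.52 in sibcat and fell by 0.41 in APC cells. TCF7L2, the main TCF factor of the colon, rose by 0.24 in siTAZ, 0.24 in sibcat and 0.90 in APC cells, and each of the 2 smaller calls was lost in 9 of 28 alternative settings. CNBP, a nucleic acid-binding protein, fell by 0.44 in siTAZ and 0.36 in sibcat cells. Its APC difference of -0.16 (adjusted p = 0.049, limma) was lost in 18 of 27 alternative settings. The mean over probe sets gave -0.15 for CNBP and 0.23 for IGF2BP2 in sibcat cells, both still called. In siTAZ cells the insulator protein CTCF also fell by 0.26 and IGF2BP1 rose by 0.23, a call lost in 9 of 28 alternative settings, among them the ACTB covariate (0.20, adjusted p = 0.165). IGF2BP1 rose by 0.26 in APC cells, a call lost without control replicate C.

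Among 14 cofactors that activate transcription with MYC, 1 rose and 3 fell in siTAZ, 0 rose and 4 fell in sibcat, and 4 rose and 1 fell in APC cells, with medians of -0.05, -0.14 and 0.12. The called shares of 28.6%, 28.6% and 35.7% lay near the 27.0%, 32.9% and 30.7% of all genes. RUVBL1, a helicase of chromatin remodelling complexes, fell by 0.53, WDR5, a chromatin adaptor that contacts MYC, by 0.46, the acetyltransferase KAT5 by 0.23 and RUVBL2 by 0.21 in sibcat cells. In siTAZ cells RUVBL1 fell by 0.26, KAT5 by 0.25 and the elongation cyclin CCNT1 by 0.24, and the scaffold TRRAP rose by 0.22. In APC cells CCNT1 fell by 0.75, while WDR5 rose by 0.42, RUVBL2 by 0.27, the acetyltransferase KAT2A by 0.23 and KAT5 by 0.18. The TRRAP call was lost in 6 of 27 alternative settings, among them the ACTB covariate (0.18, adjusted p = 0.112), and the KAT2A and KAT5 calls in APC cells in 5 of 28 and 10 of 27. With the mean over probe sets CCNT1 in siTAZ cells was at -0.08 (adjusted p = 0.609) and TRRAP at 0.10 (adjusted p = 0.384), while WDR5 in sibcat cells was at -0.77 and KAT5 in APC cells at 0.28.

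Among 8 corepressor genes that serve the MXD proteins, MNT or MIZ1, 2 rose and 1 fell in siTAZ, 2 rose and 3 fell in sibcat, and 2 rose and 1 fell in APC cells, with medians of 0.09, -0.06 and 0.03. The called shares were 37.5%, 62.5% and 37.5%, beside 27.0%, 32.9% and 30.7% of all genes. The deacetylase HDAC1 rose by 0.34, 0.35 and 0.33 in siTAZ, sibcat and APC cells (adjusted p = 9.90e-05, 4.26e-05 and 9.99e-05, limma). The scaffold SIN3A rose by 0.19 in siTAZ and 0.31 in APC cells, and SIN3B by 0.40 in sibcat cells. HDAC2 fell by 0.48, the histone-binding RBBP4 by 0.39 and SAP30 by 0.35 in sibcat cells. SAP30 fell by 0.51 in APC cells and RBBP7 by 0.28 in siTAZ cells. The SIN3A call in siTAZ cells was lost in 6 of 27 alternative settings. The mean over probe sets gave -0.23 for RBBP4 in sibcat cells and -0.22 for SAP30 in APC cells, both still called.

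The genes whose pattern over the 16 arrays was most like that of MYC were RNF4, RIPK2, SF3A3, SCAP and CHTF18. Likeness was the root mean square difference of log2 deviations from the control mean, and it ran from 0.0786 to 0.0994 among these 5 of 19774 genes. In sibcat cells RNF4, a SUMO-directed ubiquitin ligase, fell by 0.50, and the splicing factor SF3A3 by 0.65.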

How the data were processed

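The authors deposited 1 table of log2 expression values, and per the submitters' processing notes they were made with RMA, a method that corrects the background, normalises the arrays by quantiles and summarises each probe set. Aligning the arrays in this way hides a change in total RNA per cell. No version is given in the sources used here, and base 2 was inferred from the range of the values. Array signals have no counts behind them, so the number of arrays limits the precision.

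Of 54675 probe sets, 41097 were paired with 1 gene, for 19775 genes. All 16 arrays entered 1 limma 3.58.1 model (R 4.3.3) with a mean per group, no block, no filter and 6 comparisons, adjusted over all probe sets. The model was tested on simulated data. Figures were drawn with matplotlib 3.10.9. Arrays of the same letter deviated together in each of 24 pairs (r from 0.122 to 0.404). Against the other groups, 8 of 16 arrays correlated best, on average, with their own letter, where chance with 4 letters gives about 1 array in 4. The letter was also used as a block. No 2 arrays were identical.

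The members and lists were chosen with earlier results of these data known. Named were all members with the brightest probe set, the perturbed genes, up to 5 called genes per list and comparison by size (brighter group at or above 5.10), lists of 3 or fewer in full, and the 5 genes most like MYC. Alternatives covered the block, dim and cross-hybridising probe sets, centring, the prior, RNA integrity, probe set choice and each array left out.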

Additional observations from a re-analysis of the deposited data

Results flagged for a closer look

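Among 68 groups of 4 arrays on 17 member probe sets, 2 held an array far from the other 3, and chance marks about 1 group in 20. On the MYCN probe set 209757_s_at, siTAZ replicate A read 3.91 where the other 3 siTAZ arrays read 3.82 to 3.83. On the MXI1 probe set 202364_at, siTAZ replicate B read 10.05 where the others read 10.13 to 10.14. The causes were not tested.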

How the results depend on the processing

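Over 250 results and their alternatives, 6379 of 6693 values kept their side of the threshold, or stayed within 1.5 times a count. Of the rest, 228 lost a call, 46 gained one, 38 counts moved and 2 values changed sign with a call in either fit. Values that changed sign without a call in either fit, such as MYC in APC cells against control (-0.04 to 0.04), were counted as kept. Both sign changes with a call were MYCN with the mean of its probe sets in place of the brightest: 0.21 for APC against control and -0.20 for siTAZ against APC. Leaving out probe sets that can cross-hybridise (names ending in _s_at, _x_at or _a_at) removed the only MYC probe set and left fewer features. The called member probe sets were then 4, 3 and 0 for siTAZ, sibcat and APC against control, 4 for siTAZ against sibcat, 5 for APC against sibcat and 4 for siTAZ against APC. The called member genes were 3, 2 and 0, then 3, 2 and 3. Genes activated by MYC gave 9, 11 and 4 calls, and repressed genes 3, 4 and 6. With only the 2 groups compared in the fit, APC against control gave 3 member probe sets and 0 genes, by limma. With replicates A and B alone, added after seeing the data, siTAZ against control gave 4 probe sets, 3 genes and 6 activated genes. APC against control then gave 3 and 0, siTAZ against sibcat 4 and 3, and MYC in siTAZ cells 0.21 against control and 0.20 against APC cells, neither passing the test. Replicates C and D alone gave 3 and 0 for APC against control. The ACTB covariate took MYC in siTAZ cells to 0.14 against control and 0.14 against APC cells. The causes were not tested.

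With each array left out in turn, APC against control gave 4 to 7 member probe sets (4 without control A or C or APC A or B) and 1 to 3 genes (1 without control A, C or D or APC A or B). MYC in siTAZ cells ran from 0.19 to 0.27 against control. With the replicate block, calls were 8, 6 and 7 member probe sets against control, and 11, 10 and 10 between the other groups. That block changed no member call against control, and between the other groups it added only the calls given for MXD1 and for the MYCN probe set 234298_at. Small differences near the threshold are limited by 4 arrays per group, and probe sets below 5.10 by signal over background.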
